A study of Drosophila melanogaster with 20 samples.

Results

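The genes srp, Pxn, Hml, NimC1, He and crq, which mark the blood cells (hemocytes) of Drosophila melanogaster, were followed as short RNA fragments in small RNA libraries of sorted embryo cells. They were chosen by symbol as known hemocyte genes, at a time when earlier results of these data were known. All 6 were found among the 17263 annotated genes that remained after miRNA hairpins and genes sharing exon bases with a hairpin were set aside. The values count fragments that fell on the exons of a gene in libraries prepared for small RNAs, so they are not levels of the intact mRNAs. The study asked how miRNAs and their target genes change in neural cells of the embryo. Cells of embryos aged 6-8 h or 18-22 h after egg laying were dissociated, fixed in 4% formaldehyde, stained with an antibody against 1 marker protein and sorted into a marker-positive and a marker-negative fraction. The marker was repo (a homeodomain protein of glia) or elav (an RNA-binding protein of neurons) at both ages, and prospero (pros, a transcription factor of neural precursors and new glia) at 6-8 h only. This gave 10 groups of 2 libraries, labelled as biological duplicates, 20 in all, sequenced as 51 bp single reads. A negative fraction held every embryo cell without the stained marker, including non-neural tissues, and neurons or glia of the other kind. No strain or genotype is given in the sources used here.

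Hemocytes of the embryo arise in the head mesoderm and spread through the whole body. Most become plasmatocytes, macrophages that engulf dying cells, clear debris around the developing nerve cord and secrete basement membrane proteins. A minority become crystal cells, which make prophenoloxidase. The 6 genes cover several sides of this cell type. srp (serpent) encodes a GATA transcription factor that specifies hemocytes and also acts in fat body and endoderm. Pxn (Peroxidasin) and Hml (Hemolectin) encode secreted proteins, a matrix peroxidase and a large clotting factor. NimC1 and crq (croquemort) encode surface receptors for uptake, the first with Nimrod repeats and the second of the CD36 scavenger receptor family. He (Hemese) encodes a surface glycoprotein of hemocytes.

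Fragments of the marker genes were compared first. Fragments of repo were higher in the repo-positive than in the repo-negative fraction by 5.49 ± 0.40 (log2 fold change ± SE) at 6-8 h and 5.44 ± 0.41 at 18-22 h. Fragments of elav were higher in the elav-positive fraction by 3.51 ± 0.35 and 3.36 ± 0.35, and those of pros in the pros-positive fraction by 4.05 ± 0.38. The marker of another sort was also higher in 3 comparisons by edgeR: elav in the pros-positive fraction (3.22 ± 0.35, adjusted p = 2.5e-05), repo in the elav-positive fraction at 6-8 h (1.32 ± 0.36, 0.0228) and pros in the elav-positive fraction at 18-22 h (1.29 ± 0.34, 0.0143). The 20 libraries held 3994804 to 13402457 counts on non-miRNA genes, of which protein-coding genes took 9.53 to 21.4%. In 2 libraries, replicate 2 of elav-positive and of elav-negative at 6-8 h, miRNA hairpins and genes overlapping them took 2.04% and 3.96% of all counts, against 16 to 65.1% in the other 18. Calls on the 6 genes, and some list counts, that rest on these 2 libraries are therefore also given without them. The marker values above include them. The log2 levels of the replicates of a group correlated over genes with r between 0.881 in the pros-positive and 0.950 in the elav-positive 18-22 h group.

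In the files' annotation (BDGP6/dm6, Ensembl release 85) the 6 genes lay on 3 chromosome arms. srp (FBgn0003507) spans 3R:15986152-16004081 on the plus strand, and its 5668 exon bases share 938 with the non-coding gene lncRNA:CR44133 on the same strand, so fragments there were counted for both genes. Pxn (FBgn0011828) spans 3L:2601455-2630064 on the minus strand with 5955 exon bases, of which 151 are shared in the same way with lncRNA:CR45660. Hml (FBgn0029167) spans 3L:13846054-13860001 on the plus strand with 11756 exon bases, none of them shared. On arm 2L and all on the minus strand were crq (FBgn0015924, 448254-453024, 2848 exon bases), He (FBgn0028430, 13972096-13972947, 673 exon bases) and NimC1 (FBgn0259896, 13973158-13976769, 3292 exon bases). He and NimC1 are neighbours with 210 bases between them in the Nimrod gene cluster. Overlaps on the opposite strand (82 bases of Pxn with CG16986, 78 of He with NimB5, 448 of crq with ex) did not add counts, since reads were assigned by strand.

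Levels are given as CPM, each library's counts set to a common total of non-miRNA fragments and scaled by TMM factors, as mean ± SD of 2 libraries. srp was highest in the elav-negative fraction at 6-8 h, with 21.7 ± 2.48 CPM, and the 5 negative groups took the first 5 places in its order, down to 12.2 ± 0.985 CPM in the pros-negative group. The pros-positive group followed at 9.93 ± 3.42 CPM, and the repo- and elav-positive groups had 2.67 to 3.06 CPM at both ages, which did not differ beyond their spread. Pxn spanned the widest range, from 0.789 ± 0.210 CPM in the pros-positive group to 157 ± 94 CPM in the repo-negative and 172 ± 78.2 CPM in the elav-negative group at 18-22 h. Its negative groups at 6-8 h lay between, at 10.5 to 18.7 CPM. The positive groups at 18-22 h had 7.34 ± 0.552 CPM (repo) and 8.74 ± 4.97 CPM (elav), and their libraries partly overlapped those of the early negative groups. Hml and NimC1 were high in 2 groups only. Hml reached 20.2 ± 15 CPM in the repo-negative and 16.6 ± 7.42 CPM in the elav-negative group at 18-22 h, against 1.59 to 4.16 CPM in the other 8, whose neighbours did not differ beyond their spread. NimC1 reached 17.4 ± 4.26 CPM in the elav-negative and 14.3 ± 6.38 CPM in the repo-negative group at 18-22 h, against 0.195 to 1.60 CPM elsewhere. crq had the smallest ratio of highest to lowest group mean among the 5 genes with counts in every group, 6.59 against 8.11 for srp and more for the others, though not the smallest span in CPM. It ran from 3.56 ± 0.456 CPM in the elav-positive group at 18-22 h to 23.5 ± 12.2 CPM in the elav-negative group at 6-8 h, and the groups between formed a gradual series in which most neighbours overlapped.

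Between genes, levels are comparable only per length of exon. In the elav-negative group at 18-22 h, Pxn had 28.8 CPM per kb of exon, crq 5.51, NimC1 5.28, srp 2.94, Hml 1.41 and He 1.19. In the same fraction at 6-8 h the order was different: crq led with 8.24 CPM per kb, followed by srp with 3.83 and Pxn with 3.13, while Hml and NimC1 had 0.308 and 0.250 and He had no counts. In bulk samples fewer hemocytes and less RNA per hemocyte cannot be told apart.

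**Figure D1:**
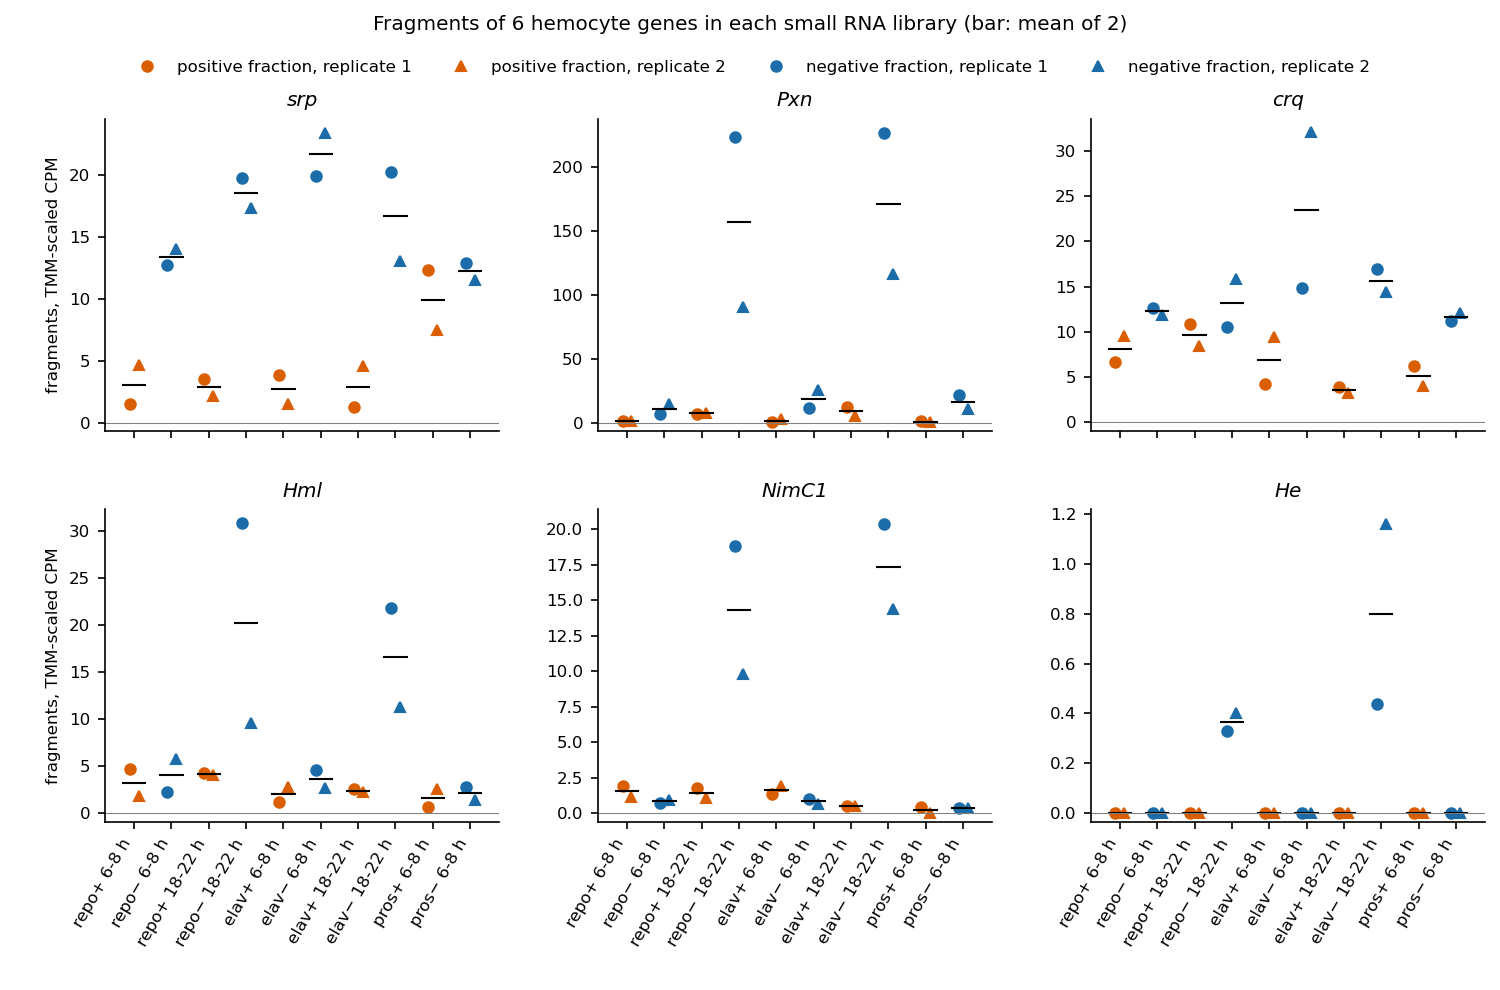
Fragments of the 6 genes in each library, as TMM-scaled CPM on a linear axis that differs between panels; circles are replicate 1, triangles replicate 2, orange the positive and blue the negative fractions, and black bars the mean of 2. Pxn, Hml, NimC1 and He stood high in the repo-negative and elav-negative fractions at 18-22 h, srp in all negative fractions, and crq ran from 3.24 to 32.1 CPM.

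The repo sort compared glia-enriched cells with all others. At 6-8 h Pxn fell in the repo-positive fraction, and it was the 1 member of 5 tested that was called, where 0.981% of the 11726 genes tested were called lower and 3.36% in either direction. At 18-22 h Pxn, NimC1 and srp fell, 3 of 5, where 0.870% of all genes were called lower and 2.31% in either direction. He was not tested, since no library reached the 1.30 CPM that the filter on low counts asked of at least 2 libraries. The median log2 fold change of the 5 was -0.59 at 6-8 h and -2.70 at 18-22 h, beside a median of all tested genes of -0.0043 and -0.12.

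Pxn had 0.956 and 1.16 CPM in the repo-positive libraries at 6-8 h and 6.89 and 14.2 CPM in the repo-negative ones. At 18-22 h it had 6.95 and 7.73 CPM against 224 and 90.9 CPM, replicate 1 first. The fractions did not overlap at either age; in the late negative fraction replicate 1 was much the higher. The log2 fold change was -3.29 ± 0.68 at 6-8 h (edgeR quasi-likelihood test, Benjamini-Hochberg adjusted p = 0.0085) and -4.42 ± 0.62 at 18-22 h (adjusted p = 0.00041). At 6-8 h the call was lost without repo-positive replicate 1 (-3.17, edgeR adjusted p = 0.0602), repo-positive replicate 2 (-3.45, 0.0956) or repo-negative replicate 2 (-2.69, 0.111), while at 18-22 h it held in every alternative run.

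srp, the transcription factor, had 1.5 and 4.62 CPM against 12.8 and 14.1 CPM at 6-8 h. At 18-22 h it had 3.54 and 2.12 CPM in the positive and 19.8 and 17.3 CPM in the negative fraction. Every negative library lay above every positive one at both ages. Its log2 fold change of -2.11 ± 0.60 at 6-8 h did not pass the test (edgeR adjusted p = 0.0576), although DESeq2 called it (-2.08, adjusted p = 0.0109), and so did edgeR with protein-coding genes alone (-2.11, 0.0420) or without the filter on low counts (-2.04, 0.0317). At 18-22 h srp fell by 2.70 ± 0.62 on the log2 scale (edgeR adjusted p = 0.0180), a call that needed all 4 libraries: without 1 of them the value ran from -3.14 to -2.39 and the adjusted p from 0.0666 to 0.244.

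NimC1, the plasmatocyte uptake receptor, had 1.77 and 1.06 CPM in the repo-positive and 18.8 and 9.78 CPM in the repo-negative libraries at 18-22 h. These did not overlap, and the log2 fold change was -3.32 ± 0.78 (edgeR adjusted p = 0.0234). The call was lost without repo-positive replicate 1 (-3.75, 0.172), repo-positive replicate 2 (-3.0, 0.285), repo-negative replicate 1 (-2.78, 0.330) or repo-negative replicate 2 (-3.72, 0.0557), and with scaling by total counts (-3.18, 0.0807). Before scaling by TMM factors, NimC1 reached the 1.30 CPM of the filter on low counts in 4 of 4 late negative libraries and in 3 of the other 16. The filter asked for at least 2 libraries, so NimC1 would have met it without the late negative fractions. At 6-8 h it was near the limit of counting in both fractions, with 1.91 and 1.16 CPM against 0.733 and 0.916 CPM, and the difference of 0.88 ± 0.82 did not pass.

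Hml and crq did not pass in the repo sort. Hml, the clotting factor, had 4.22 and 4.09 CPM against 30.8 and 9.57 CPM at 18-22 h, with no overlap, but the negative replicates lay far from each other, and the log2 fold change of -2.28 ± 0.75 had an edgeR adjusted p of 0.157. A fit of these 4 libraries alone called it (-2.21, adjusted p = 0.0342). At 6-8 h its fractions overlapped, at 4.64 and 1.85 CPM against 2.20 and 5.80 CPM. crq, the CD36-type receptor, had 6.69 and 9.60 CPM against 12.6 and 11.9 CPM at 6-8 h and 10.9 and 8.49 CPM against 10.5 and 15.8 CPM at 18-22 h. Its fractions overlapped at the later age, and the log2 fold changes of -0.59 ± 0.47 and -0.44 ± 0.47 did not pass (edgeR adjusted p = 0.596 and 0.839). The libraries of the 2 fractions were apart, negative above positive, for 3 of the 5 members at 6-8 h and for 4 at 18-22 h, where 24.4% and 26.6% of all tested genes were. NimC1 was apart the other way at 6-8 h, positive above negative.

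The elav sort compared neuron-enriched cells with all others, and here crq fell as well. At 6-8 h Pxn, srp and crq fell in the elav-positive fraction, 3 of 5 tested, where 3.60% of all tested genes were called lower and 8.98% in either direction. Without the 2 replicate 2 libraries of 6-8 h, 1 of 5 was called at that age. At 18-22 h all 5 tested members fell, where 5.24% of all tested genes were called lower and 14.1% in either direction. The median log2 fold change of the 5 was -1.77 at 6-8 h and -2.79 at 18-22 h, beside 0 and -0.19 for all tested genes.

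Pxn had 0.587 and 2.38 CPM in the elav-positive and 11.5 and 25.8 CPM in the elav-negative libraries at 6-8 h. At 18-22 h it had 12.3 and 5.23 CPM against 227 and 116 CPM. The fractions were far apart at both ages, and in the late ones replicate 1 was the higher of both pairs. The log2 fold change was -3.56 ± 0.65 (edgeR adjusted p = 0.00107) and then -4.29 ± 0.62 (adjusted p = 6.5e-05), and both calls held in every alternative run. Without both replicate 2 libraries the early value was -4.23 (adjusted p = 0.0276).

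srp had 3.82 and 1.53 CPM against 19.9 and 23.4 CPM at 6-8 h. It had 1.21 and 4.61 CPM against 20.3 and 13.1 CPM at 18-22 h. No elav-positive library reached an elav-negative one. srp fell by 3.05 ± 0.62 at 6-8 h (edgeR adjusted p = 0.00301) and by 2.52 ± 0.61 at 18-22 h (adjusted p = 0.00709) on the log2 scale. The early call was lost without elav-positive replicate 2 (-2.46, 0.0798) or without both replicate 2 libraries (-2.35, 0.225), and the late one without replicate 1 of the positive (-1.84, 0.143) or of the negative fraction (-2.16, 0.0746).

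crq had 4.26 and 9.45 CPM against 14.8 and 32.1 CPM at 6-8 h. At 18-22 h it had 3.88 and 3.24 CPM against 17 and 14.4 CPM. The fractions did not overlap at either age, with both replicate 2 libraries the higher ones at 6-8 h. The log2 fold change was -1.77 ± 0.48 at 6-8 h (edgeR adjusted p = 0.0224) and -2.14 ± 0.50 at 18-22 h (adjusted p = 0.00515). The early call was lost without replicate 1 of the positive (-1.34, 0.168) or replicate 2 of the negative fraction (-1.10, 0.379), without both replicate 2 libraries (-1.77, 0.241), and also with scaling by total counts (-0.96, 0.321), without the filter on low counts (-1.59, 0.0545) and in a fit of these 4 libraries alone (-1.69, 0.105). The late call was lost without elav-positive replicate 1 (-2.26, 0.0501) or 2 (-2.0, 0.0695) and with scaling by total counts (-1.76, 0.0540).

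Hml and NimC1 differed at the later age. Hml had 2.55 and 2.24 CPM against 21.8 and 11.3 CPM at 18-22 h, with no overlap, and fell by 2.79 ± 0.77 on the log2 scale (edgeR adjusted p = 0.0176). That call was lost without elav-positive replicate 1 (-2.87, 0.126), elav-positive replicate 2 (-2.68, 0.127) or elav-negative replicate 1 (-2.23, 0.162), and with scaling by total counts (-2.45, 0.0671). NimC1 had 0.485 and 0.498 CPM against 20.4 and 14.4 CPM, the clearest separation of any member, with a log2 fold change of -5.10 ± 0.87 (edgeR adjusted p = 0.000352). It kept that call in every alternative run. At 6-8 h neither passed: Hml had 1.17 and 2.81 CPM against 4.60 and 2.63 CPM, and NimC1 had 1.32 and 1.87 CPM against 1.02 and 0.627 CPM. The libraries were apart, negative above positive, for 3 of the 5 members at 6-8 h and for all 5 at 18-22 h, where 24.4% and 33.5% of all tested genes were. At 6-8 h NimC1 was apart the other way, positive above negative.

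In the pros sort at 6-8 h, Pxn alone fell, 1 of 5 tested, where 1.26% of all tested genes were called lower and 2.46% in either direction. It had 0.938 and 0.641 CPM in the pros-positive and 21.7 and 10.9 CPM in the pros-negative libraries. The fractions were well apart, and the log2 fold change was -4.32 ± 0.68 (edgeR adjusted p = 0.00167). That call was lost in a fit of the 4 pros libraries alone (-4.38, adjusted p = 0.0657). srp differed little, with 12.3 and 7.51 CPM against 12.9 and 11.5 CPM, overlapping, and a log2 fold change of -0.30 ± 0.56 (edgeR adjusted p = 0.846). crq had 6.25 and 4.03 CPM against 11.2 and 12.1 CPM, apart but short of the threshold (-1.17 ± 0.48, edgeR adjusted p = 0.200). Hml and NimC1 were low in both fractions, at most 2.76 and 0.391 CPM. The mapping directory named in the pros files differed from that of the other files, so levels in the pros libraries and in the others may differ by processing, which was not tested.

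**Figure D2:**
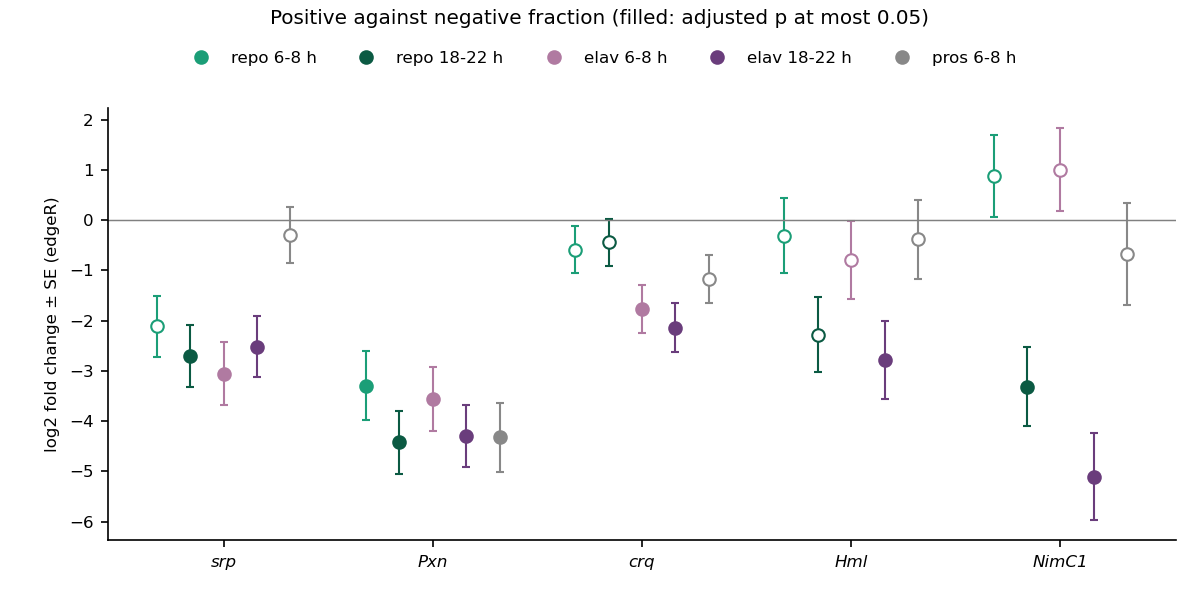
Log2 fold change of positive over negative fraction (vertical axis, edgeR, ± SE) for the 5 tested members in the 5 comparisons, each from 2 against 2 libraries; filled points had an adjusted p of at most 0.05. Pxn was lower in all 5 comparisons, between -4.42 and -3.29, srp was near 0 in the pros sort only, and crq passed in the elav sort at both ages.

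The repo-positive and elav-positive fractions were also set against each other, and so were the 2 sorts' changes. Between the positive fractions, edgeR called 0 of the 5 at 6-8 h (0 at an unadjusted p under 0.05, 0 by DESeq2), where it called 3.90% of all tested genes. At 18-22 h it called 0 again (1 at an unadjusted p under 0.05, 1 by DESeq2), where it called 6.07% of all genes. crq had 10.9 and 8.49 CPM in the repo-positive and 3.88 and 3.24 CPM in the elav-positive libraries at 18-22 h. These were apart, and the log2 difference of 1.44 ± 0.49 did not pass in edgeR (adjusted p = 0.0922) but did in DESeq2 (1.45, adjusted p = 0.0448) and in a fit of these 4 libraries alone (1.55, 0.0398). For the difference between the changes in the repo and in the elav sort edgeR called 0 members at 6-8 h (0 at an unadjusted p under 0.05, 0 by DESeq2) and 0 at 18-22 h (1 at an unadjusted p under 0.05, 0 by DESeq2), where it called 1.45% and 6.07% of all genes. For crq that difference was 1.18 ± 0.67 at 6-8 h (edgeR adjusted p = 0.560) and 1.70 ± 0.67 at 18-22 h (adjusted p = 0.171), and a fit of the 8 libraries of 18-22 h alone called the second (1.78, 0.0443). crq fell in the elav sort and was not called in the repo sort, but the sorts were not shown to differ for it: the 95% interval of the difference at 18-22 h ran from 0.19 to 3.20 without correction. For Pxn and srp the difference between sorts at 18-22 h was -0.13 ± 0.78 and -0.18 ± 0.84, with 95% intervals of -1.86 to 1.61 and -2.05 to 1.68.

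Embryo age was compared within each fraction. In the repo-negative fraction Pxn, NimC1 and Hml rose from 6-8 h to 18-22 h, 3 of 5 tested, where 7.16% of all tested genes were called higher and 11.4% in either direction. In the elav-negative fraction Pxn and NimC1 rose, 2 of 5, where 6.77% were called higher and 12.2% in either direction. srp and crq were not called in either negative fraction. In each positive fraction Pxn alone rose, 1 of 5, where 1.85% (repo) and 1.83% (elav) of all tested genes were called higher and 3.70% and 3.02% in either direction.

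NimC1 went from 0.733 and 0.916 CPM to 18.8 and 9.78 CPM in the repo-negative fraction, and from 1.02 and 0.627 CPM to 20.4 and 14.4 CPM in the elav-negative one. Both late replicates lay far above both early ones in each fraction. The log2 fold changes of late over early were 4.09 ± 0.83 (edgeR adjusted p = 0.00271) and 4.43 ± 0.85 (adjusted p = 0.0020). Without repo-negative 6-8 h replicate 1 the first was 3.95 (adjusted p = 0.0531), and without elav-negative 6-8 h replicate 2 the second was 4.08 (adjusted p = 0.050, just above the threshold). Without both elav 6-8 h replicate 2 libraries it was 4.08 (adjusted p = 0.0469).

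Pxn went from 6.89 and 14.2 CPM to 224 and 90.9 CPM in the repo-negative fraction (3.90 ± 0.61, edgeR adjusted p = 0.000303). It went from 11.5 and 25.8 CPM to 227 and 116 CPM in the elav-negative fraction (3.18 ± 0.58, adjusted p = 0.00134). These calls held in every alternative run. The matrix peroxidase also rose in the positive fractions, at a lower level: from 0.956 and 1.16 CPM to 6.95 and 7.73 CPM with repo (2.77 ± 0.69, adjusted p = 0.0292), and from 0.587 and 2.38 CPM to 12.3 and 5.23 CPM with elav (2.45 ± 0.64, adjusted p = 0.0415). The repo call was lost without any 1 of its 4 libraries (2.65 to 2.92, adjusted p 0.0891 to 0.163) and with scaling by total counts (2.46, 0.0776). The elav call was lost without elav-positive 6-8 h replicate 1 (1.89, 0.208) or 18-22 h replicate 1 (1.73, 0.415), with scaling by total counts (1.87, 0.162) and in a fit of these 4 libraries alone (2.38, 0.139). Without both elav 6-8 h replicate 2 libraries Pxn rose by 3.91 in the elav-negative (edgeR adjusted p = 0.0039) and by 3.92 in the elav-positive fraction (0.0355).

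Hml went from 2.20 and 5.80 CPM to 30.8 and 9.57 CPM in the repo-negative fraction, and from 4.60 and 2.63 CPM to 21.8 and 11.3 CPM in the elav-negative one. The ages did not overlap in either, and replicate 1 was the higher late library in both. It rose by 2.33 ± 0.75 (edgeR adjusted p = 0.0486) in the repo-negative fraction, a call lost without 6-8 h replicate 1 (1.81, 0.337), 6-8 h replicate 2 (3.20, 0.0914) or 18-22 h replicate 1 (1.27, 0.519), and with scaling by total counts (2.05, 0.134). The elav-negative value of 2.22 ± 0.76 did not pass (edgeR adjusted p = 0.0619) but did in DESeq2 (2.31, adjusted p = 0.0223). Without both elav 6-8 h replicate 2 libraries that value was 1.86, and with 1 library left out it ran from 1.67 to 2.65. srp had late over early log2 fold changes of 0.47 ± 0.56 and -0.38 ± 0.56, and crq of 0.10 ± 0.47 and -0.59 ± 0.46, in the repo-negative and elav-negative fractions.

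**Figure D3:**
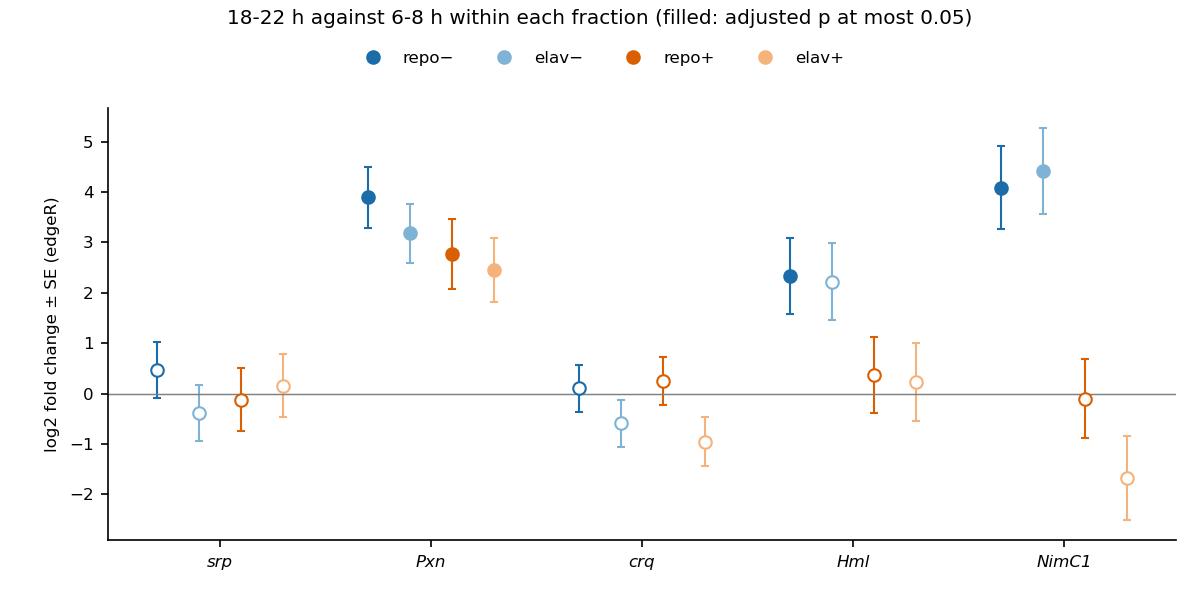
Log2 fold change of 18-22 h over 6-8 h (vertical axis, edgeR, ± SE) for the 5 tested members within each fraction, 2 against 2 libraries; filled points had an adjusted p of at most 0.05. Pxn rose in all 4 fractions, NimC1 in both negative ones, and srp and crq lay within about 1 log2 unit of 0.

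Whether the gap between fractions changed with age was tested directly. In the elav sort NimC1 was the 1 member of 5 called, where 1.14% of all tested genes were: the positive-over-negative log2 fold change at 18-22 h minus that at 6-8 h was -6.11 ± 1.19 (edgeR adjusted p = 0.00887). The call was lost without elav-negative 6-8 h replicate 2 (-5.74, 0.0899), and at 18-22 h without elav-negative replicate 1 (-5.81, 0.0715) or either elav-positive library (-6.07, 0.0766, and -6.10, 0.0615). It was also lost without both elav 6-8 h replicate 2 libraries (-5.42, 0.199). In the repo sort edgeR called 0 members (1 at an unadjusted p under 0.05, 1 by DESeq2), where it called 0.0853% of all tested genes. NimC1 had a difference of -4.19 ± 1.12 there (edgeR adjusted p = 0.166), which DESeq2 called (-4.25, adjusted p = 0.0187).

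He, the shortest of the genes, was almost without counts. The deposited estimated counts were 3.33 and 4.00 in the repo-negative and 4.14 and 8.00 in the elav-negative libraries at 18-22 h, and at most 0.33 in each of the other 16 libraries. Fragments of He were thus seen at or above 1 count in those 2 groups only, the same groups that were highest for Pxn, NimC1 and Hml. With the lower group set to a floor of 3 counts, the ratio for He of repo-negative to repo-positive at 18-22 h was 1.79. For elav-negative to elav-positive it was 4.11. Likewise the ratio of 18-22 h to 6-8 h was 1.71 (repo-negative) and 3.0 (elav-negative). The few counts of the higher group were taken as they stood, so these ratios are not lower limits. With no filter on low counts, edgeR gave an unadjusted p of 0.108 in the repo and 0.0442 in the elav sort at 18-22 h, and adjusted p of 0.721 and 0.230. He was therefore not detectable at this depth at 6-8 h or in any positive fraction.

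Other gene lists were read from the same fits, some of hemocytes and some of other cells that a fraction could hold. As background, the shares of all tested genes called lower at 6-8 h were 0.981% (repo sort), 3.60% (elav) and 1.26% (pros). At 18-22 h they were 0.870% (repo) and 5.24% (elav). Called higher were 2.38% (repo) and 5.38% (elav) at 6-8 h, and 1.44% and 8.83% at 18-22 h. With age, 7.16% of all tested genes were called higher in the repo-negative and 6.77% in the elav-negative fraction. Genes of the basement membrane and its processing, which hemocytes and fat body both make, moved with the members. Of these 10, edgeR called 10 lower in the positive fraction at 18-22 h in the repo sort (median log2 fold change -3.16) and 10 in the elav sort (median -3.74). With 1 library left out, 6 to 10 (repo) and 10 (elav) were called. At 6-8 h it called 3 lower in the repo (0 to 2 with 1 library left out), 8 in the elav (5 to 8, and 5 without both replicate 2 libraries) and 4 in the pros sort (0). In both negative fractions all 10 rose with age, with a median of 4.71 in the repo-negative and 3.49 in the elav-negative fraction (10 and 6 to 10 called with 1 library left out). In each positive fraction 6 of the 10 rose with age, with a median of 2.57 (repo) and 2.18 (elav). There 1.85% and 1.83% of all tested genes were called higher. Col4a1, a collagen IV chain, had 104 and 224 CPM at the ends of its repo-positive range and 1202 and 2533 CPM in the repo-negative libraries at 18-22 h (-3.51 ± 0.53, edgeR adjusted p = 0.000811). Ppn, the matrix protein papilin, fell by 4.25 ± 0.68 in the elav sort at 18-22 h (edgeR adjusted p = 0.000191).

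Other plasmatocyte receptor and uptake genes moved less uniformly. Of 11 tested, 2 fell in the repo sort at 18-22 h, 3 in the elav sort at each age and 1 in the pros sort. With 1 library left out these were 0 to 2, 1 to 2 (6-8 h), 2 to 3 (18-22 h) and 0 to 2, and scaling by total counts gave 1 in the repo sort at 18-22 h and 1 in the elav sort at 6-8 h. Without both elav 6-8 h replicate 2 libraries the early elav count was 1. In the repo sort at 6-8 h edgeR called 0 lower (2 at an unadjusted p under 0.05, 1 by DESeq2). NimB4, a secreted Nimrod protein, fell in all of these comparisons except the repo sort at 6-8 h, with 2.49 to 2.55 CPM in the elav-positive and 27 to 46.4 CPM in the elav-negative group at 18-22 h (-3.86 ± 0.76, edgeR adjusted p = 0.00155). Pvr, the PDGF/VEGF-type receptor that hemocytes need to survive and migrate, fell in the repo sort at 18-22 h (-2.02 ± 0.51, edgeR adjusted p = 0.0351) and in the elav sort at both ages. In the repo, elav and pros sorts edgeR called 0 of the 11 higher. Summed, the 11 had 113 to 120 CPM in the repo-positive and 91.6 to 94.7 CPM in the repo-negative libraries at 6-8 h. With age 2 rose and 1 fell in the repo-negative, and 1 rose and 1 fell in the elav-negative fraction. There 11.4% and 12.2% of all tested genes were called in either direction. The crystal cell gene PPO2, a prophenoloxidase, fell in the elav sort at 18-22 h, from 22.6 to 37.1 CPM in the negative to 1.49 to 2.06 CPM in the positive libraries (-4.06 ± 0.96, edgeR adjusted p = 0.00618). It was the 1 crystal cell gene of 4 that did so, while peb, a zinc finger gene also used in other tissues, rose (1.42 ± 0.42, adjusted p = 0.0261). In that comparison 5.24% of all tested genes were called lower and 8.83% higher, so 1 call each way among 4 genes is not a result about the list.

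Blood cell regulators behaved differently in the repo sort: of 10, 4 rose in the repo-positive fraction at 6-8 h and 3 at 18-22 h (0 to 3 and 0 to 1 with 1 library left out). gcm, which specifies both glia and plasmatocytes, rose at both ages (2.81 ± 0.57, edgeR adjusted p = 0.00748, and 2.78 ± 0.66, adjusted p = 0.0246). Rac2, a small GTPase used in engulfment, also rose at both ages (1.89 ± 0.43 and 2.30 ± 0.43), zfh1 and the ligand gene Pvf2 rose at 6-8 h and the ligand gene Pvf3 at 18-22 h. In the elav sort 4 of these 10 fell and 1 rose at 6-8 h, and 2 fell and 1 rose at 18-22 h, where 5.38% and 8.83% of all tested genes were called higher (with 1 library left out, 1 to 3 fell early and 0 late, and 0 fell and 0 rose early without both replicate 2 libraries). gcm is also on the list of glia genes, of which 9 of 10 rose in the repo-positive fraction at 6-8 h and 7 at 18-22 h (1 to 9 and 4 to 6 with 1 library left out), where 2.38% and 1.44% of all tested genes were called higher. Of the engulfment genes that glia and hemocytes share (drpr, NimC4, ced-6, Rac2, Shark), Rac2, ced-6 and NimC4 were higher in repo-positive than in elav-positive cells at both ages, 3 of 5, where 1.82% and 2.39% of all tested genes were called higher (2 to 3 early and 1 to 2 late with 1 library left out).

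Markers of other tissues were read beside the members. Of 7 muscle genes tested, 4 fell in the elav sort at each age (1 and 0 with scaling by total counts, 1 to 4 and 0 to 2 with 1 library left out, and 0 early without both replicate 2 libraries). In the repo sort edgeR called 0 lower at 6-8 h (3 at an unadjusted p under 0.05, 0 by DESeq2) and 0 at 18-22 h (5 at an unadjusted p under 0.05, 3 by DESeq2). With age 6 of the 7 rose and 1 fell in both negative fractions. There 7.16% (repo) and 6.77% (elav) of all tested genes were called higher, and 11.4% and 12.2% in either direction. In each positive fraction 4 of the 7 rose with age, where 1.85% (repo) and 1.83% (elav) of all tested genes were called higher. The 7 matched muscle genes, summed, had 1588 to 2030 CPM in the repo-negative and 690 to 950 CPM in the repo-positive libraries at 18-22 h, and none of them was at 0 counts in any group. Of 7 fat body genes tested, apolpp and Apoltp, which encode lipid carrier proteins, fell in both sorts at 18-22 h, and svp rose in the repo sort. With 1 library left out, 0 to 1 fell and 0 rose in the repo sort, and 1 fell in the elav sort. At 6-8 h 1 rose and 1 fell in the repo sort (median 0.56), and with age 3 rose in the repo-negative and 2 in the elav-negative fraction (1 to 3 and 2 to 3 with 1 library left out). Of the 7 fat body genes tested, 1 rose with age in the repo-positive and 3 in the elav-positive fraction. The 8 fat body genes, summed, had 939 to 1115 CPM in the repo-negative and 252 to 369 CPM in the repo-positive libraries at 18-22 h. The summed 10 matrix genes had 6641 and 12896 CPM in the repo-negative libraries at 18-22 h and 8020 and 13313 CPM in the elav-negative ones, and as for Pxn, Hml and NimC1 the higher library was replicate 1 in both. Of 8 neuron genes, 4 rose in the repo-positive fraction at 6-8 h (0 to 2 with 1 library left out). With age 7 of the 8 rose in the repo-negative fraction (median 3.68, 6 to 7 with 1 library left out) and 5 in the elav-negative one (median 1.61, 1 to 2 with 1 library left out, 1 without both replicate 2 libraries or with total counts). Of the 8 neuron genes, 3 rose with age in the repo-positive and 2 in the elav-positive fraction. The part of other tissues in the members' changes was not tested.

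**Figure D4:**
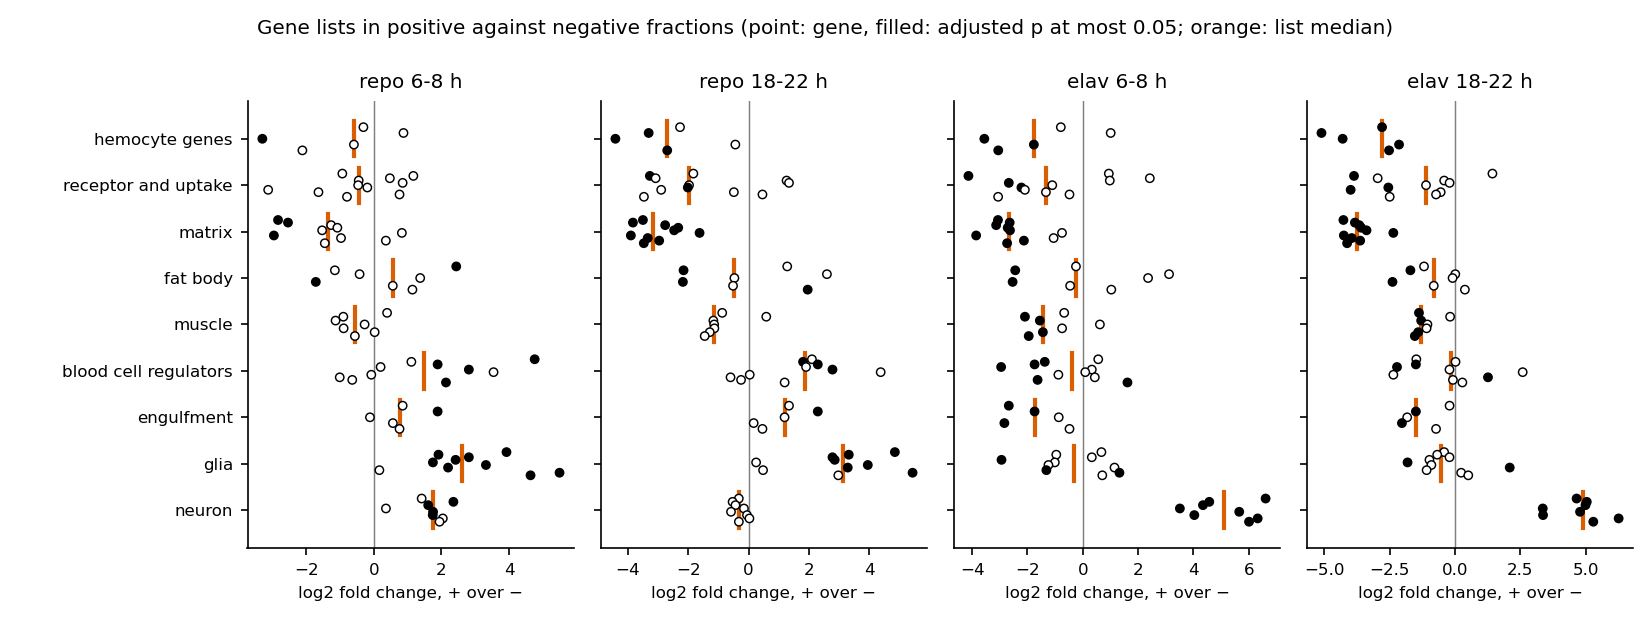
Log2 fold change of positive over negative fraction (horizontal axis, edgeR) for each tested gene (point) of 9 lists in the repo and elav sorts; filled points had an adjusted p of at most 0.05, and orange bars are list medians. At 18-22 h all 10 matrix genes were lower in both sorts beside the hemocyte genes. The median of the glia list was above 0 in the repo sort, and that of the neuron list in the elav sort.

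Across libraries some pairs of members were more alike than others. Over the 20 libraries, Pearson's r of log2(CPM + 1) was 0.891 for Hml and NimC1, 0.843 for He and NimC1 and 0.834 for Hml and Pxn. It was 0.653 for crq and srp and 0.329 for srp and NimC1. Other pairs lay between, such as NimC1 and Pxn (0.771), He and Hml (0.702) and Pxn and srp (0.603). He reached 1 count only in the repo-negative and elav-negative libraries at 18-22 h, so its r rests on those libraries. All these r values are descriptions over libraries that share their group, depth and scaling. The genes most like the mean of the 6 were LanA (r = 0.953), LanB2 (0.945) and LanB1 (0.940), the 3 chains of a laminin, followed by CG34437, CG9515, CG31777, a gene known here only as FBgn0261362 and CG5958 (0.932 to 0.911). For Pxn alone the nearest were Ppn (0.964) and LanA (0.957), for srp Jabba (0.920) and pio (0.888), for NimC1 TwdlX (0.933) and CG34253 (0.925), for Hml CG2852 (0.895) and CG43799 (0.894), for crq CG7966 (0.867) and Cpr (0.856), and for He, with its few counts, lncRNA:CR44810 (0.906) and TwdlX (0.882).

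Gene changes could also be read from 11 deposited tables by the authors, each pairing miRNAs with genes, and 3 of the 6 genes, srp, Pxn and crq, had values there. The direction of these tables is not stated in their headers and was read from the miRNA signs, as the second group over the first. The tables list a gene only beside a miRNA of opposite sign, and the gene libraries behind them were not analysed here. For Pxn the authors' deposited tables gave positive-over-negative changes of -3.40 (repo, 6-8 h), -4.71 (repo, 18-22 h), -3.94 (elav, 6-8 h), -5.55 (elav, 18-22 h) and -3.63 (pros), beside -3.29, -4.42, -3.56, -4.29 and -4.32 for the fragments. For srp the authors' deposited tables gave -3.37 (repo, 6-8 h), -3.11 (elav, 6-8 h), -4.39 (elav, 18-22 h) and -1.69 (pros), beside -2.11, -3.05, -2.52 and -0.30 for the fragments. The widest gaps between fragments and deposited values were those of srp in the elav sort at 18-22 h (1.88), the pros sort (1.39) and the repo sort at 6-8 h (1.26), and of Pxn in the elav sort at 18-22 h (1.26). For crq the authors' deposited tables gave -1.03 (repo, 6-8 h), -1.77 (elav, 6-8 h), -2.58 (elav, 18-22 h) and -1.63 (pros), beside -0.59, -1.77, -2.14 and -1.17 for the fragments. They also gave 1.06 for crq in repo-positive over elav-positive cells at 18-22 h, beside 1.44 here, and for Pxn a late-over-early change of 3.05 (repo-positive) and 2.61 (elav-positive), beside 2.77 and 2.45.

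**Figure D5:**
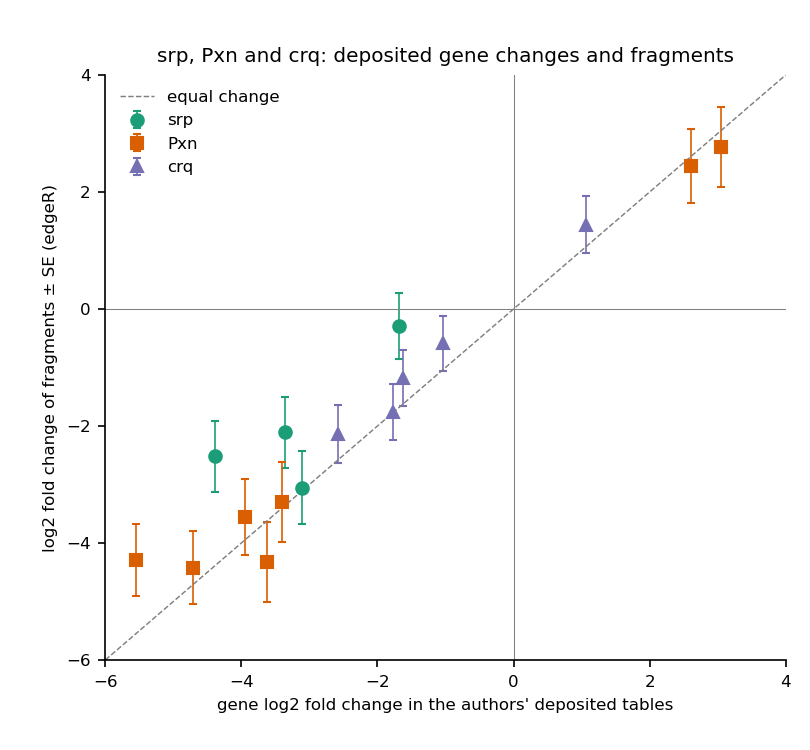
Gene log2 fold changes in the authors' deposited tables (horizontal axis) and log2 fold changes of fragments (vertical axis, edgeR, ± SE) for srp, Pxn and crq in the comparisons that both held; the dashed line marks equal change. Most points lay within 1 log2 unit of the line, and srp in the elav sort at 18-22 h lay 1.88 units above it.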

How the data were processed

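Small RNA libraries (1 x 51 bp reads) were analysed from 20 samples in 10 groups of 2. Per the file headers, featureCounts 1.5.1 assigned reads by strand to Ensembl release 85 exons, to every gene overlapped, and split multi-mapping reads among their places, so the deposited values are estimated counts (78.1% are not whole, within 0.001). The submitters' processing notes name Bowtie 1.1.2, SAMtools 1.8, featureCounts 1.5.1 and DESeq2, and the builds BDGP6 and dm6. In further tables deposited by the authors, genes stand beside miRNAs with log2 fold changes and adjusted p-values. How those gene values were made is not given in the sources used here.

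From the 17559 genes per file, 237 miRNA hairpins and 59 genes sharing same-strand exon bases with them were set aside, since miRNA reads would dominate them. Counts were rounded. edgeR 4.0.16 (R 4.3.3) fitted a quasi-likelihood model to all 20 libraries with TMM factors and filterByExpr (11726 genes tested, common biological coefficient of variation 0.511, 10 residual degrees of freedom), with Benjamini-Hochberg correction within each of 15 comparisons at 0.05. The fit was also run on simulated counts. These had less spread between libraries than the data, and changes were planted only in genes above the median level. That run cannot show how the fit performs on genes with few counts. SE is |log2 fold change| divided by the square root of F. Per kb values divide CPM by exon length. A gene table named 17253 of the identifiers. Coordinates are those of the files. With 2 libraries a group, labelled biological duplicates, no exact test on a single gene could pass 0.05, so all p-values come from the fit across genes. No 2 libraries of a group agreed within sampling noise.

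Alternatives were other scalings (RLE, total counts), protein-coding genes only, no filter, unrounded counts, DESeq2 1.42.0, only the groups compared, a replicate block, and leaving out libraries. The members and lists were chosen with earlier results of these data known. Genes of other lists were named by a rule: up to 4 per list and comparison with the largest change among those called without overlap; genes most alike by Pearson's r, 8 for the mean and 2 per member. PPO1 and wupA of the lists matched no gene in the files.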

Additional observations from a re-analysis of the deposited data

Results flagged for a closer look

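NimC1 differed between ages in the elav sort by a test of the difference itself. Its positive-over-negative log2 fold change was 1.01 at 6-8 h and -5.10 at 18-22 h, a difference of -6.11 ± 1.19 (edgeR adjusted p = 0.00887). The lower values rested on few counts, 8.64 summed over both elav-negative libraries at 6-8 h and 7.77 over both elav-positive ones at 18-22 h. Levels were at most 1.87 CPM in 6 of the 8 libraries and 14.4 and 20.4 CPM in the elav-negative ones at 18-22 h. The difference was not called without both elav 6-8 h replicate 2 libraries (-5.42, adjusted p = 0.199).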

How the results depend on the processing

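Pxn kept its call under every alternative in the elav sort at both ages, in the repo sort at 18-22 h and in both negative fractions with age, and so did NimC1 in the elav sort at 18-22 h. Of the 5 tested members, edgeR as reported called 1 in the repo sort at 6-8 h and 2 with protein-coding genes only, no filter or DESeq2. In the elav sort it called 3 at 6-8 h but 1 without both elav 6-8 h replicate 2 libraries, and 5 at 18-22 h but 3 with total counts. The pros call went to 0 with only the groups compared. With age, the repo-positive call went to 0 with total counts, and the elav-positive call to 0 with total counts or only the groups compared. Repo-positive against elav-positive at 18-22 h went from 0 to 1 (DESeq2, or only the groups compared), the difference between sorts at 18-22 h from 0 to 1 (only the groups compared), the repo difference between ages from 0 to 1 (DESeq2) and the elav one from 1 to 0 (without both elav 6-8 h replicate 2 libraries).

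With 1 library left out, the numbers called ran from 0 to 1 (repo sort, 6-8 h), 1 to 1 (repo, 18-22 h), 2 to 5 (elav, 18-22 h), 1 to 3 (repo-negative with age), 1 to 2 (elav-negative with age), 0 to 0 (repo-positive with age), 0 to 1 (elav-positive with age) and 0 to 1 (elav difference between ages). The labels do not say that a replicate number marks a shared batch. Same-numbered positive and negative libraries deviated together only weakly (correlation over non-miRNA genes 0.0214 to 0.213), so the numbers were not shown to pair the samples. The highest correlation was that of the elav sort at 6-8 h. There both replicate 2 libraries also had few counts on hairpins and genes overlapping them (2.04% and 3.96%). Whether those 2 were handled together was not tested. With the number as a replicate block, 2 members were called in the repo sort at 6-8 h (srp joined, -2.27, adjusted p = 0.0438) and 0 in the elav-positive fraction with age (Pxn 2.38, 0.0530), and Hml lost its call in the repo-negative fraction with age (2.24, 0.0705).

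Values that turned sign had not been called: Hml in the elav sort at 6-8 h (0.0214 with total counts), crq in the repo-negative fraction with age (-0.280 with total counts, -0.214 to 0.376 with 1 library left out) and in the elav-negative fraction (0.0916 without both replicate 2 libraries, -1.04 to 0.0907), Hml in the repo sort at 6-8 h (-1.11 to 0.546), and in the pros sort srp (-0.785 to 0.0323), Hml (-1.67 to 0.236) and NimC1 (-4.47 to 0.225). Total counts moved the median of all tested genes by 0.677 in the elav sort at 6-8 h, 0.369 at 18-22 h, -0.357 and -0.184 in the repo- and elav-negative fractions with age and -0.317 and -0.492 in the positive ones. Over all tested genes the numbers called, 394 and 271 (repo sort, 6-8 h and 18-22 h), 1053 and 1650 (elav) and 289 (pros), ran over the alternatives that were not single left-out libraries from 237 to 810, 193 to 588, 212 to 1530, 1511 to 2533 and 14 to 669. With age they were 1341 and 1431 in the repo- and elav-negative fractions (1140 to 2228, 566 to 1920) and 434 and 354 in the positive ones (372 to 858, 148 to 738). Between positive fractions they were 457 and 712 (197 to 832, 504 to 1494), for the difference between sorts 170 and 712 (28 to 382, 600 to 1331) and for that between ages 10 (repo, 5 to 133) and 134 (elav, 46 to 340). He and NimC1 had the lowest total counts of the 6 genes, and few counts in most libraries. The causes of these changes were not tested.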
